A study of Mus musculus with 6 samples.

Results

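The genes described here are 10 core members of the BCL2 family of apoptosis regulators, measured in AE9a leukaemia cells of mice given oil or tamoxifen. They were chosen by name as Bcl2, Bcl2l1, Mcl1, Bax, Bak1, Bbc3, Pmaip1, Bcl2l11, Bid and Bad, and all 10 had a row among the 23608 genes of the count table. AE9a, a shortened version of the leukaemia fusion protein AML1-ETO, was delivered to fetal liver cells with a retrovirus that also carries GFP, and the resulting leukaemia was maintained by transplantation into irradiated C57BL/6 mice. All the cells, controls included, carried 1 floxed Usp18 allele beside a normal one (Usp18+/f) and UBCER-Cre, a tamoxifen-dependent recombinase expressed from the ubiquitin C promoter. The control recipients received oil, and the treated recipients received tamoxifen after they had become sick, which is meant to convert the floxed allele to a deleted one (Usp18+/D in the labels). GFP+ Lin- c-Kit+ spleen cells were sorted 3 days after the first injection, and the bulk RNA of 3 recipients per group was sequenced. The number of independent leukaemias behind these recipients and the recipients' exact ages were not given in the labels. Oil-treated animals also carried Cre, but no group received tamoxifen without a floxed allele, so effects of tamoxifen or of active Cre cannot be told apart from those of the deletion.

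BCL2 family proteins decide whether the outer membrane of the mitochondrion is opened, the step that releases cytochrome c and commits a cell to apoptosis. The guardians (BCL2, BCL-XL and MCL1) hold the membrane closed, the effectors BAX and BAK1 form the pores, and the BH3-only proteins (PUMA, NOXA, BIM, BID and BAD) carry stress signals by occupying the guardians or engaging the effectors. Blood progenitors and myeloid leukaemias are known to lean on MCL1 and BCL2 for survival. Much of the regulation of this family occurs in the protein, through cleavage, phosphorylation and turnover, which RNA counts do not measure.

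No member passed the test between the groups. Of the 10 genes, 9 had enough counts to be tested, and 0 of the 9 had an adjusted p below 0.05 in either direction (edgeR quasi-likelihood test, Benjamini-Hochberg adjustment over 11614 genes), where 1.75% of all genes tested were called higher and 0.267% lower. At an unadjusted p below 0.05, 5 of the 9 were higher in the tamoxifen group (Bcl2, Bcl2l1, Mcl1, Bax and Bbc3) and 0 were lower, against 12.6% and 7.99% of all genes. The DESeq2 Wald test also called 0 of the 9 (6.14% of all genes were called higher and 1.99% lower), with 5 higher and 0 lower at an unadjusted p below 0.05 (13.1% and 8.7%). With limma-voom 0 were called (0.413% and 0.0517%), with 4 higher and 0 lower at an unadjusted p below 0.05 (11.1% and 9.14%). The median log2 fold change was 0.23 over the 9 members and 0.00012 over all genes tested. The call for 4 of these genes turned on a single tamoxifen library, named tam 4, and the values without it are given below for each gene.

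Each library held between 17118964 and 20741399 estimated counts. Levels are given as CPM, in which a gene's count is divided by the TMM-scaled total of its library, and libraries carry the numbers of the deposited table. The targeted gene went against its label, since Usp18 was measured at 9.12 to 11.2 CPM in the oil libraries and at 15.1 to 28.0 CPM in the libraries labelled tamoxifen (log2 fold change 0.998, edgeR adjusted p = 0.0739), and reads over the deleted exons were not counted apart. Whether the labels of the groups were exchanged was not tested. An exchange would turn every direction given here, so tamoxifen stands throughout for the libraries labelled tamoxifen. Kit, the marker of the sort, stood at 447 ± 6.29 CPM (SD, n = 3) in oil and at 651, 781 and 447 CPM in tam 1, tam 2 and tam 4. Cd34, a progenitor marker, rose from a mean of 9.95 to 96.3 CPM (adjusted p = 0.0232 by edgeR), while the myeloid gene Mpo and the pan-leukocyte gene Ptprc (CD45) did not exceed 3.5 and 11.5 counts in any library. Markers of B cells, of T and NK cells and of neutrophils each summed to at most 1.03 CPM per library (6 of the 8 T and NK markers had 0 counts throughout), and macrophage markers to 3.25 to 7.15 CPM in oil and 5.41 to 12.4 CPM in tamoxifen. Erythroid markers were abundant in both groups, at 3861 to 6010 CPM in oil and 3099 to 7426 CPM in tamoxifen. Mast cell markers summed to 2908 to 3105 CPM in oil and to 4847, 7495 and 3648 CPM in tam 1, tam 2 and tam 4, and 2 of them, Tpsb2 and Fcer1a, passed the test as higher. In bulk RNA, a change in the number of cells of a type and a change in RNA per cell cannot be told apart.

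Promoter windows of Bax and Bbc3 are shown because both genes are textbook targets of the transcription factor p53 and because the oil and tamoxifen libraries did not overlap for them. The windows run from 250 bases before to 50 bases after a RefSeq transcription start (GRCm38.p6) and are read 5′ to 3′ on the strand of the gene. Capitals mark motif matches found on either strand. In Bax (chr7:45466849-45467148, minus strand) they mark a p53 half-site. In the first Bbc3 window (chr7:16309333-16309632, plus strand) they mark a pair of overlapping matches to the NF-kB consensus. In the second (chr7:16310011-16310310, plus strand) they mark the forkhead core GTAAACA on the reverse strand.
Bax: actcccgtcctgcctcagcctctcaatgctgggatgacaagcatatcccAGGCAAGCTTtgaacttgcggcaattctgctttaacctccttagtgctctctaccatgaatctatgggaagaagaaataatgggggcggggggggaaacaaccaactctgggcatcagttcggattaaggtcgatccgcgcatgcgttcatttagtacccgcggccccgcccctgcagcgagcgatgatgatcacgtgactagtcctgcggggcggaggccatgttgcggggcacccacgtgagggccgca
Bbc3 window 1: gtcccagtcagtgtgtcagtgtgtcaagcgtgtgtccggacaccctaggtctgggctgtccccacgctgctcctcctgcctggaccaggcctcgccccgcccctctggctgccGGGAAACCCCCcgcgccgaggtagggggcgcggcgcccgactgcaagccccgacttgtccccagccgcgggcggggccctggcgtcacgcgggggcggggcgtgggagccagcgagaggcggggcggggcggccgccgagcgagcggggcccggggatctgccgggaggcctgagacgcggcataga
Bbc3 window 2: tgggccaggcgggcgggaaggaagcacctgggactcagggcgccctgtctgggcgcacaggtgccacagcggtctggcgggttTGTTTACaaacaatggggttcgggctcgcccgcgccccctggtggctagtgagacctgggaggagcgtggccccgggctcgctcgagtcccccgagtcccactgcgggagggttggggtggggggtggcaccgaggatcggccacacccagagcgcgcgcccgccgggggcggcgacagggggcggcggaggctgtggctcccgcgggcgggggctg

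In the Bax window the p53 half-site lay at positions -201 to -192 from the start, and a half-site occurred in 8.36% of 32851 promoter windows of the same length. A full p53 site, made of a pair of adjoining half-sites, occurred in 0.0731% of windows and in none of the 15 windows read, which covered 9 members. No window of Pmaip1, on chromosome 18, was read. The NF-kB consensus occurred in 8.46% of all windows, and beside Bbc3 it was found in the second Bcl2l1 window, at -242 to -233. GTAAACA occurred in 3.65% of all windows, and beside Bbc3 it was found in the first Bcl2l11 window, at -227 to -221. The core of interferon response elements (GAAA, 2 bases of any kind, GAAA) was present in 3.44% of all windows and in none of the 15 windows read for the members. These matches describe letters in a window and not binding.

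To set the members side by side, CPM was divided by transcript length in kilobases (the exon union of each gene in GENCODE M21), and every value in this paragraph is a level on that scale. The 2 effectors and Mcl1 stood highest in oil, with Bak1 at 63.0 ± 0.453, Mcl1 at 62.2 ± 4.23 and Bax at 44.2 ± 1.77 (SD, n = 3). Bid at 12.7, Bad at 12.2, Bbc3 at 10.04 and Bcl2l1 at 9.43 followed. Bcl2l11 stood lower, at 1.79, and Bcl2 at 0.0670 was near the bottom, so of the guardians the cells held MCL1 transcripts in the largest amount and BCL2 transcripts in the smallest. Pmaip1 was not counted in any oil library. Bak1 and Mcl1, Bid and Bad, and Bbc3 and Bcl2l1 overlapped over the oil libraries and are not told apart by these levels, whereas the steps from Bax to Bid, from Bcl2l1 to Bcl2l11 and from Bcl2l11 to Bcl2 had no overlap in either group. In the tamoxifen group Mcl1 had the highest mean, 79.8 ± 14.7, ahead of Bak1 at 60.3 ± 4.27 and Bax at 52.0 ± 4.76, with the ranges of Mcl1 and Bak1 overlapping. The longest transcript as the length kept the 3 highest, the next 4 and the last 3 genes and changed the order only within the first 2 of these sets.

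**Figure D1:**
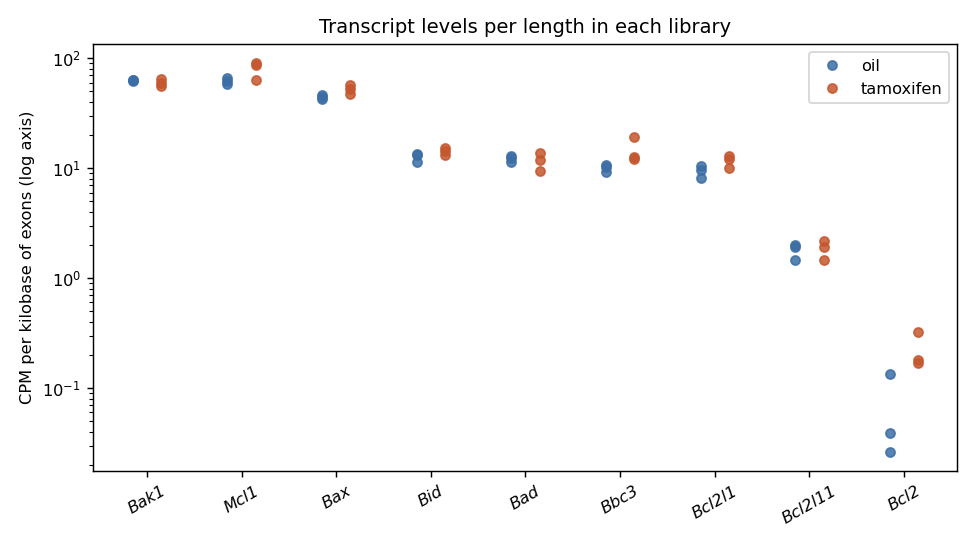
Levels of the members other than Pmaip1 in CPM per kilobase of transcript, on a log axis, with 1 point per library in each group. Bak1, Mcl1 and Bax lie above the rest in both groups, and Bcl2 lies below Bcl2l11 in both. Pmaip1, which was counted in tam 2 only, is not drawn.

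Among the guardians, Mcl1 (chr3:95658788-95663176, plus strand) encodes the short-lived protein on which many blood cells depend. Oil 1, 3 and 4 held 210, 228 and 199 CPM, and tam 1, 2 and 4 held 297, 307 and 215 CPM. Tam 1 and tam 2 lay above all the oil libraries, whereas tam 4 lay among them. The fold was 1.28 (95% interval 1.03 to 1.60, log2 0.36, SE 0.140), with an adjusted p of 0.214 by edgeR. Without tam 4 the log2 difference was 0.51 (SE 0.0759) and the adjusted p was 0.000910 by edgeR.

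Bcl2l1 (chr2:152780668-152831728, minus strand) encodes BCL-XL, the guardian known for keeping late erythroid cells and platelets alive. The oil libraries held 44.3, 47.9 and 37.5 CPM and the tamoxifen libraries 59.4, 56.1 and 45.8 CPM. As for Mcl1, tam 4 fell inside the oil range and the other tamoxifen libraries above it. The fold was 1.24, the 95% interval of its log2 ran from 0.00395 to 0.62, and the adjusted p was 0.239 by edgeR. Without tam 4 the log2 fold change was 0.42 with an adjusted p of 0.0149 by edgeR.

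Bcl2 (chr1:106538178-106714274, minus strand), the founding member of the family, was scarce in both groups. The libraries held 22, 5 and 7 counts in oil and 30, 50 and 28.5 counts in tamoxifen, or 1.24, 0.242 and 0.360 CPM against 1.65, 2.95 and 1.55 CPM. No oil library reached the lowest tamoxifen library, with oil 1 close below tam 4. The log2 fold change of 1.75 was the largest of the members and also the least precise, with a 95% interval of 0.38 to 3.13 and an adjusted p of 0.175 by edgeR. Without oil 1 it was 2.74, and without tam 4 it was 1.93 with an adjusted p of 0.0325 by edgeR. An antisense gene, D630008O14Rik, covers 6.09% of its exons and had no row in the table, and since the strand setting of the counting was not stated, reads of the antisense gene cannot be told apart from those of Bcl2 at counts this low.

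Of the effectors, Bax (chr7:45461697-45466898, minus strand) moves from the cytosol to the mitochondrion when activated. Its level was 70.3, 66.7 and 72.2 CPM with oil, against 74.3, 82.3 and 89.3 CPM in tam 1, 2 and 4. Every tamoxifen library lay above every oil library, and here tam 4 was the highest of them. The fold was 1.18 (95% interval 1.01 to 1.37) with an adjusted p of 0.228 by edgeR, and without tam 4 the log2 fold change was 0.17 with an adjusted p of 0.131. A gene on the same strand, Gm45808, covers 12.2% of the Bax exons and had no row of its own.

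Bak1 (chr17:27019810-27029009, minus strand), the effector that sits in the mitochondrial membrane from the start, held 150, 152 and 152 CPM with oil against 135, 156 and 144 CPM with tamoxifen. The oil libraries were nearly equal, and the tamoxifen libraries lay on both sides of them. The log2 fold change was -0.064, with a 95% interval of -0.26 to 0.13 and an adjusted p of 0.672 by edgeR. The opposite-strand gene Ggnbp1 shares 25.5% of the Bak1 exons but held no more than 17 counts in a library.

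Bcl2, Bax and Bbc3 were the 3 members of 9 tested without overlap between the groups, in each case with tamoxifen above oil, which held for 13.3% of all genes tested, and 0 members had tamoxifen below oil, which held for 11.8%. Bbc3 (chr7:16308393-16318205, plus strand) encodes PUMA, a BH3-only protein that binds all the guardians. The oil libraries held 21.7, 19.8 and 22.5 CPM, and tam 1, 2 and 4 held 26.7, 40.5 and 25.6 CPM. The oil libraries were close together, tam 1 and tam 4 lay a little above them, and tam 2 stood far higher. The fold was 1.45 (95% interval 1.08 to 1.95, log2 0.54, SE 0.185), with an adjusted p of 0.178 by edgeR. Without tam 2 the log2 fold change was 0.30, and without tam 4 it was 0.65 with an adjusted p of 0.0122 by edgeR.

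Bid, the BH3-only protein that caspase-8 cleaves to link death receptors to the mitochondrion (chr6:120891930-120916853, minus strand), held 47.1, 40.3 and 47.4 CPM with oil against 46.5, 53.6 and 50.9 CPM with tamoxifen. The groups overlapped through tam 1, and the log2 fold change of 0.16 had a 95% interval of -0.079 to 0.41 with an adjusted p of 0.391 by edgeR. Opposite-strand exons of Bcl2l13, itself a family gene at 369 to 448 CPM, cover 17.7% of the Bid exons, so with the strand setting unknown the level of Bid is uncertain.

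Bad (chr19:6941861-6951899, plus strand) encodes a protein that growth factor signalling holds inactive by phosphorylation. Its levels were 33.0, 31.9 and 29.0 CPM with oil against 34.8, 30.2 and 24.3 CPM in tamoxifen. The tamoxifen libraries spanned the whole oil range on both sides, with a log2 fold change of -0.072 (95% interval -0.40 to 0.26) and an adjusted p of 0.790 by edgeR. Gpr137 on the opposite strand, at 8.24 to 12.7 CPM, shares 20.5% of the Bad exons.

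Bcl2l11 (chr2:128126038-128162547, plus strand) encodes BIM, which responds to loss of cytokine signals and is a known target of forkhead factors. The libraries held 15.3, 11.7 and 16.2 CPM with oil against 11.9, 17.4 and 15.4 CPM in tamoxifen. The groups covered much the same range, and the log2 fold change of 0.047 had a 95% interval of -0.39 to 0.49 with an adjusted p of 0.900 by edgeR.

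Pmaip1, which encodes NOXA, the BH3-only partner of MCL1 and another p53 target, was close to absent from the counts. It had 0 counts in all the oil libraries and in tam 1 and tam 4, and 1 count in tam 2. A count of 0 allows up to 3 counts, which at these depths is 0.145 to 0.177 CPM and covers counting error only, so no fold is given and the gene was not tested.

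**Figure D2:**
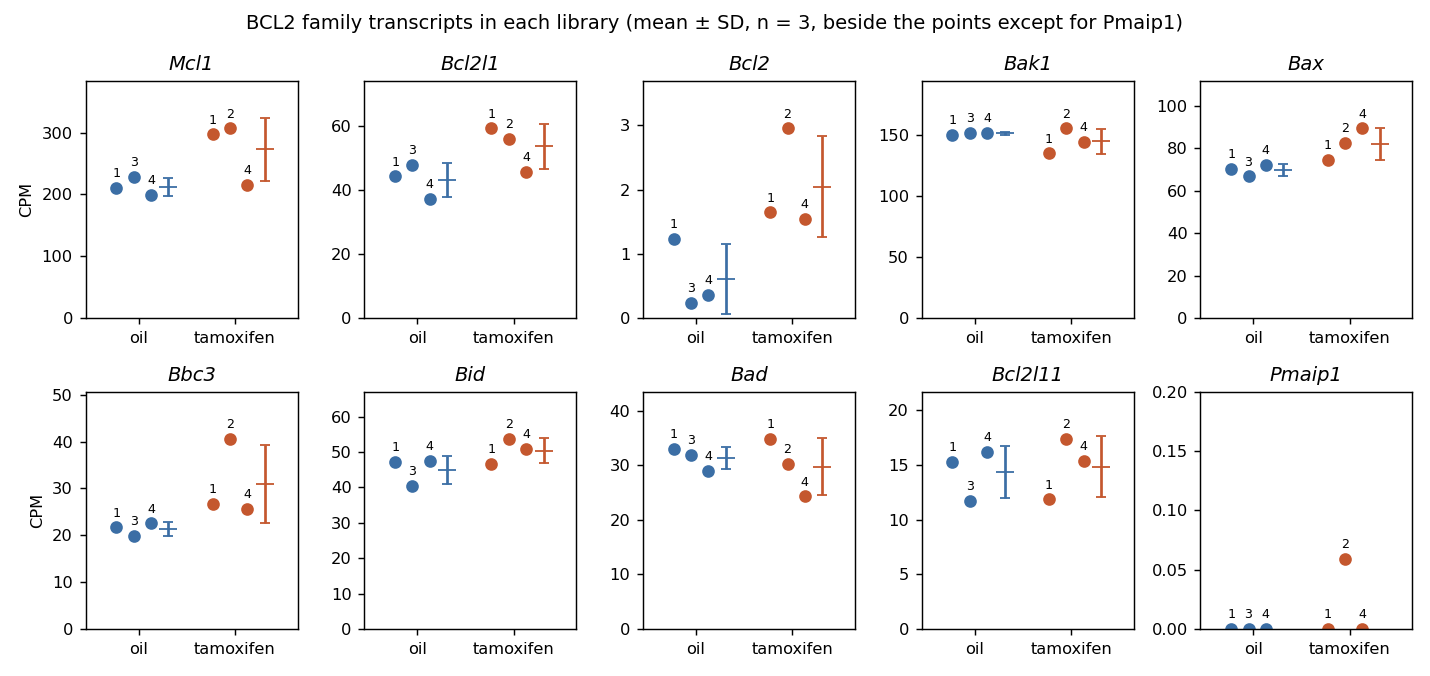
CPM of each gene in each library, with a panel and axis for each gene, points numbered by library, and the mean ± SD of 3 libraries beside the points except for Pmaip1. Tam 4 lies at the oil level for Mcl1 and Bcl2l1 and is the highest library for Bax, and the groups do not overlap for Bcl2, Bax and Bbc3.

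Tam 4 lay near the oil libraries for many other genes as well. For 3 of the 9 members tested tam 4 lay within the oil range, as it did for 4440 of the 11614 genes. The same count was not made for tam 1 and tam 2, so this number alone does not set tam 4 apart. Tam 1 and tam 2 both lay above every oil library for 5 of the 9 members (55.6%) and for 3575 of the 11614 genes (30.8%). Both lay below every oil library for 0 of the 9 members and for 3557 of the 11614 genes. With tam 4 left out, 4 of the 9 members were called higher and 0 lower, namely Bcl2, Bcl2l1, Mcl1 and Bbc3, while 19.2% of all genes were called higher and 17.1% lower. DESeq2 without tam 4 called the same 4, beside 18.6% of all genes called higher and 17.4% called lower. Leaving out any other single library called 0 members, with at most 0.135% of all genes called higher. The sums of mast cell markers and the level of Kit also set tam 4 nearest to the oil libraries among the tamoxifen ones, and their part in the members' values was not tested.

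**Figure D3:**
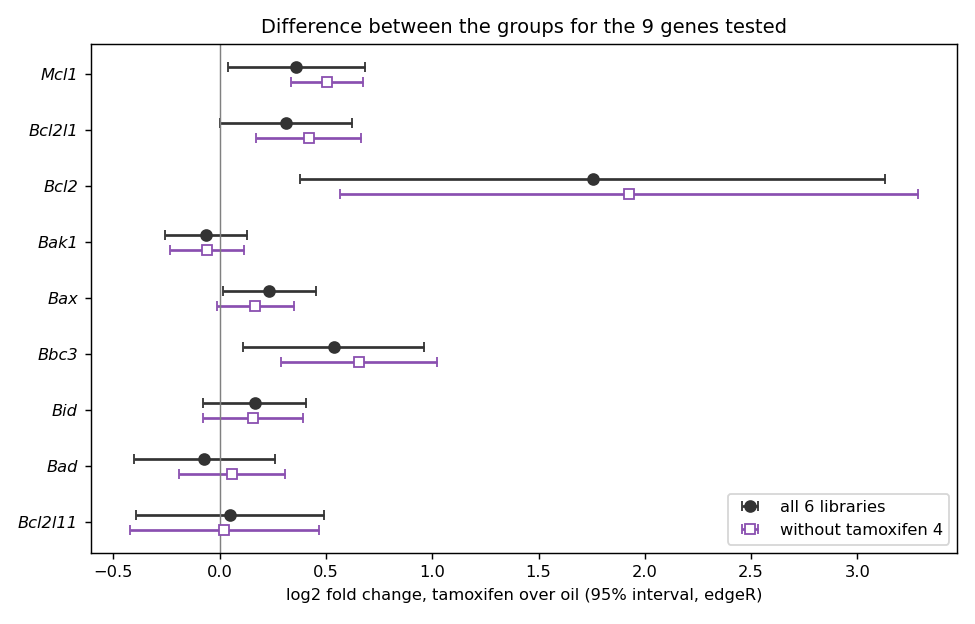
Log2 fold change, tamoxifen against oil, of the 9 tested genes with 95% intervals from the edgeR fit, for all 6 libraries and with tam 4 left out. With all libraries the intervals of Bcl2, Bcl2l1, Mcl1, Bax and Bbc3 lie above 0 before adjustment, and without tam 4 the estimates of Mcl1 and Bbc3 are 0.51 and 0.65.

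The balance between the classes was described from the levels per kilobase, as a description without a test. Guardians made up 33.2% of the summed level in oil and 37.1% in tamoxifen, effectors 49.7% and 45.8%, and BH3-only genes 17.03% and 17.11%, with the groups overlapping for all 3 classes. Effectors per guardian were 1.503 ± 0.137 in oil and 1.26 ± 0.299 in tamoxifen (SD, n = 3), and tam 4 alone, at 1.60, lay inside the oil range. Within the classes, Bax per Bak1 was 0.714, 0.669 and 0.723 in oil and 0.839, 0.807 and 0.944 in tamoxifen, without overlap. Bak1 took 29.2% of the summed level in oil and 24.5% in tamoxifen, Bbc3 4.66% and 5.86%, and Bcl2 0.0310% and 0.0895%, all without overlap. The groups overlapped for the level of Bak1 itself, and the share also depends on the levels of the other members. Bcl2l1 per Mcl1 was nearly the same in the groups, at 0.151 ± 0.00976 and 0.148 ± 0.0113, and Bbc3 per Mcl1 overlapped at 0.162 and 0.183.

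Bcl2 had the smallest p of the members, and the genes whose log2 CPM followed it most closely over the 6 libraries were Tmem55a (Pearson r = 0.995), Tprn (0.994) and Rbm43 (0.991), out of 8902 genes with a mean of at least 10 CPM. The 6 points are the same libraries for every gene, and Bcl2 is a low count in all of them. None of the 3 passed the test between groups, with edgeR adjusted p-values of 0.133, 0.292 and 0.546.

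No other gene of the family passed the test. Of 16 further family genes, 8 were tested and 0 were called in either direction, beside 1.75% of all genes tested called higher and 0.267% lower. The log2 fold changes of the 8 had a median of -0.049. Without tam 4, 1 of the 8, Bmf, was called, as higher, beside 19.2% of all genes called higher and 17.1% lower. The log2 fold change was 0.72 for Bmf, a BH3-only gene (adjusted p = 0.340 by edgeR), -0.46 for Bik, another BH3-only gene (0.263), and -0.31 for the effector-like Bok (0.429). On the scale per kilobase, Bnip3l, a mitophagy receptor of red cell maturation, stood at 70.3 in oil and 68.8 in tamoxifen, above all 10 members in oil, and Bcl2l13 at 46.1 and 44.1. The 4 copies of Bcl2a1, whose near-identical sequences make their counts uncertain, Bcl2l10, Hrk, Bcl2l14 and Bcl2l15 held at most 6 counts in any library.

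Several textbook p53 targets rose in the same libraries. Of a list of 12, which includes Bbc3 and Bax, 4 were called higher and 0 lower, beside 1.75% and 0.267% of all genes tested, and the median log2 fold change was 0.52. Cdkn1a, the cell cycle inhibitor p21, held 18.2, 22.3 and 15.4 CPM with oil against 95.7, 118 and 95.4 CPM with tamoxifen (log2 fold change 2.47, adjusted p = 0.00286 by edgeR). Zmat3, an RNA-binding p53 effector, rose from a mean of 28.9 to 83.4 CPM (adjusted p = 0.00312 by edgeR), Trp53inp1 from 20.1 to 57.3 CPM (0.0420) and the receptor Eda2r from 0.821 to 2.91 CPM (0.0454). For Cdkn1a and Zmat3 tam 4 lay with the other tamoxifen libraries, far above the oil libraries. Perp had a log2 fold change of 2.25 from low counts, with an adjusted p of 0.160 by edgeR. For 10 of the 12, Bbc3 and Bax among them, the tamoxifen libraries all lay above the oil libraries, as for 13.3% of all genes tested, although the folds of Bbc3 (1.45) and Bax (1.18) were smaller than that of Cdkn1a (5.53). Without tam 4, 8 of the 12 were called higher and 1, the cell cycle gene Gtse1, lower, beside 19.2% and 17.1% of all genes. This list was chosen with earlier results of these libraries known, so it is not independent evidence of its direction.

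Of 19 genes that control the members' transcription or protein turnover, 16 were tested and 0 were called. Of all genes tested, 1.75% were called higher and 0.267% lower. The median log2 fold change of the 16 was -0.033. Jun and Egr1, immediate-early transcription factors, had log2 fold changes of 1.07 (adjusted p = 0.142 by edgeR) and 1.06 (0.275), and the forkhead factor Foxo1 one of 0.83 (0.281). Trp53 itself, whose protein is controlled chiefly by turnover, was at -0.11 with overlapping groups, and Mdm2, its ubiquitin ligase and target, at 0.39 with an adjusted p of 0.107 by edgeR. Usp9x, which removes ubiquitin from MCL1, held 226, 234 and 206 CPM with oil against 185, 155 and 189 CPM with tamoxifen (log2 fold change -0.33, adjusted p = 0.147 by edgeR). Huwe1, a ligase that attaches ubiquitin to MCL1, was at -0.31 with an adjusted p of 0.236 by edgeR. For Usp9x and Huwe1 the tamoxifen libraries lay below the oil libraries. That held for 5 of the 16, and for 3 of the 16 they lay above, beside 11.8% and 13.3% of all genes tested. Without tam 4, 4 of the 16 were called higher (Jun, Egr1, Ddit3 and Mdm2) and 4 lower (Atf4, E2f1, Huwe1 and Usp9x). Of all genes in that fit, 19.2% were called higher and 17.1% lower.

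Downstream of the mitochondrion, 20 of 20 genes of the apoptosome, the caspases and their inhibitors were tested and 0 were called. Of all genes tested, 1.75% were called higher and 0.267% lower. The median log2 fold change of the 20 was -0.16, with 16 of the 20 below 0. Over all genes tested the median was 0.00012, with 5805 of 11614 below 0. Diablo, which relieves caspase inhibition after its release from mitochondria, held 126, 115 and 129 CPM with oil against 76.7, 73.9 and 109 CPM with tamoxifen (log2 fold change -0.51, adjusted p = 0.130 by edgeR). All the tamoxifen libraries lay below the oil libraries for Diablo, with tam 4 nearest to them. Tamoxifen lay wholly below oil for 5 of the 20 genes and wholly above for 1, beside 11.8% and 13.3% of all genes tested. Birc3, an inhibitor of apoptosis and NF-kB target, had a log2 fold change of 0.58 and an adjusted p of 0.208 by edgeR. Without tam 4, genes called lower included Casp2, Diablo, Birc5 and Vdac1, and Birc2 and Birc3 were called higher.

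In the death receptor pathway that feeds into Bid, 6 of 11 genes were tested and 1 was called, as higher. Of all genes tested, 1.75% were called higher and 0.267% lower. Tnfsf10, which encodes the ligand TRAIL, rose, with 40.3, 37.0 and 40.5 CPM in the oil libraries and 55.6, 66.2 and 53.5 CPM in the tamoxifen libraries (log2 fold change 0.57, SE 0.109, adjusted p = 0.0438 by edgeR). Its receptor gene Tnfrsf10b held 1, 1 and 2 counts in oil and 13, 25 and 9.5 counts in tamoxifen, and Fas held 0 in oil and 3.5, 5 and 3 counts in tamoxifen. With all libraries neither receptor passed the low-count filter. The adaptor genes Fadd and Tradd were at log2 fold changes of -0.29 (edgeR adjusted p = 0.220) and -0.27 (0.310), and Casp8, the protease that cleaves BID, was at 0.037. Without tam 4, Tnfrsf10b also passed the filter, so that 7 genes were tested. Of these, 2 were called higher (Tnfsf10 and Tnfrsf10b) and 1 lower (Fadd), beside 19.2% and 17.1% of all genes.

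**Figure D4:**
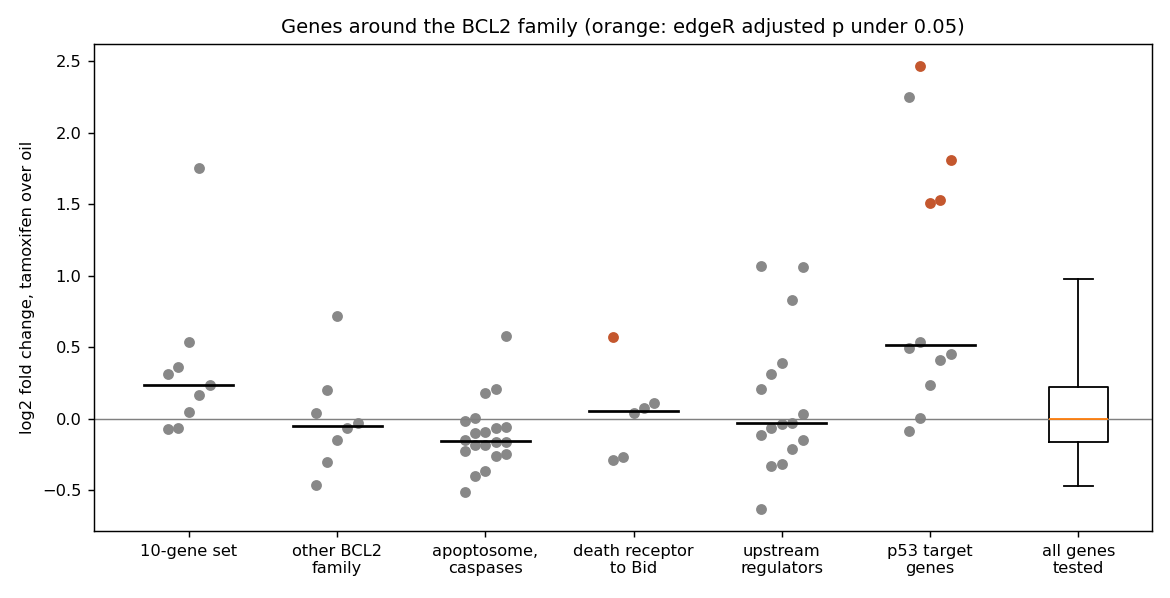
Log2 fold change, tamoxifen against oil, of the tested genes of each list, 1 point per gene, with a box for all 11614 genes (5th, 25th, 50th, 75th and 95th percentiles). The 4 called p53 targets lie between 1.51 and 2.47 and Tnfsf10 at 0.57, the members lie between -0.072 and 1.75 with none called, and most of the caspase list lies below 0.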

How the data were processed

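Bulk RNA of sorted leukaemia cells was measured in 6 libraries, 3 labelled oil and 3 labelled tamoxifen. Per the labels, the authors used STAR, DESeq2 and mm10. The deposited values are estimated counts per gene symbol, not scaled between libraries. Non-whole values made up 25.9% to 27.3% of a library. The counting program, annotation and strand setting are not given in the sources used here. The table and the sample titles number the libraries differently, and 2 columns (oil 3 and tam 2) were used through their group name alone. The labels call the libraries biological replicates.

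Counts were rounded and analysed in R 4.3.3 with edgeR 4.0.16 (filterByExpr by group, TMM, quasi-likelihood F test, no block), which left 11614 genes. P-values were adjusted by Benjamini-Hochberg over all of them, with a threshold of 0.05. CPM refers to the TMM-scaled total of tested genes. Standard errors were derived from the F statistics. Coordinates are from GENCODE M21 (GRCm38), and promoter windows and their coordinates are from RefSeq. Windows were matched by symbol and read for 9 of 10 members. Those on chromosome 18, which holds Pmaip1, were left out of the search of the members. Alternatives were other scalings within edgeR, DESeq2 1.42.0, limma-voom (limma 3.58.1), other filters, unrounded counts, the volcano plot cut-offs of the study, a replicate block and each library left out. After the data were seen, DESeq2 without tam 4 and the length of the longest transcript were added.

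The members and gene lists were chosen with earlier results of these data known. The genes named were the members, Usp18, Kit, the called genes of each list, the 3 genes of each list with the largest absolute log2 fold change and a mean of at least 1 CPM, and the 3 genes most like the member with the smallest p. Other genes were named after their values were seen, and some genes that the rule names are not reported here. Floors and counts cover counting error only. ATAC-seq of the same cells was not analysed here.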

Additional observations from a re-analysis of the deposited data

How the results depend on the processing

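Pmaip1, at 0 or 1 count in a library, could not be tested at this depth. The count of members called higher was 0 with all libraries, ranged from 0 to 4 when a library was left out, and was 4 without tam 4 under edgeR and under DESeq2. No member was called lower under any alternative. Over all genes tested, 203 were called higher and 31 lower. The counts were 713 and 231 with DESeq2, and 48 and 6 with limma-voom. They were 372 and 61 without the low-count filter, and 120 and 17 with a filter at a mean of 50 counts. Cut-offs taken from the study's volcano plot gave 7 and 0, applied as an edgeR adjusted p under 0.005 and an absolute log2 fold change over 0.5. Leaving out a library gave 8 to 2278 higher and 0 to 2024 lower, and DESeq2 without tam 4 gave 2205 and 2066. Of the pathway genes, 5 were called higher and 0 lower, against 10 and 3 with DESeq2, 2 higher with limma-voom, with the filter at 50 counts and at the volcano thresholds, 2 to 16 higher and 0 to 12 lower with a library left out, and 16 and 13 with DESeq2 without tam 4. The cause was not tested.

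Between libraries that shared a replicate number, deviations from the group means had a correlation of -0.127 for number 1 and 0.0616 for number 4. Only these numbers were shared by the groups, so this cannot settle whether the libraries were paired. A fit with the numbers as a replicate block, which left 1 residual degree of freedom, called 0 members, 215 genes higher and 26 lower, and 3 pathway genes higher and 1 lower. Bcl2l11 changed sign under the block (-0.22), without oil 3 (-0.087) and without tam 2 (-0.078), and ranged from -0.087 to 0.19 with a library left out. Bad changed sign without tam 4 (0.057 with edgeR and 0.056 with DESeq2) and ranged from -0.20 to 0.057 with a library left out. The other 7 tested members kept their direction in every fit. Usp18 passed the threshold with DESeq2, without the filter (log2 fold change 0.99) and without tam 4 (1.04).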
